A study of Homo sapiens with 8 samples.

Results

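Some mRNAs carried m6A peaks at many separate places, and the regions of these mRNAs are described here. Peaks of the 4 deposited peak lists were merged into 22001 union regions when their exon blocks touched by at least 1 bp on the same strand. Of these, 11341 regions had a peak in all 4 lists, in 8102 genes. Genes with 4 or more such regions were kept, which left 638 regions in 141 genes. The regions were chosen by the presence of a peak in each list and by their number in a gene, so the number of regions per gene is a description and was not tested. At the threshold, 92 genes had exactly 4 regions and were kept, and 444 genes had exactly 3 and were not. The others had 5 regions (38 genes), 6 (6 genes), 7 (FAT1), 8 (SPEN), 9 (AHNAK and CFLAR) and 11 (KMT2D).

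The cells were HCT116, an established human colorectal carcinoma line. Control cells received PBS and FUSO cells received Fusobacterium nucleatum, a bacterium found in colorectal tumours, at 100 bacteria per cell for 2 h according to the methods of the study. Each treatment had 2 biological replicates, and each replicate gave an input library of poly(A) RNA fragments and an IP library of the fragments bound by an m6A antibody, 8 libraries in 4 groups of 2. All cells were of 1 line. The keratin and EPCAM transcripts of colon epithelium were abundant in every input library, with KRT8 between 1941 and 2286 FPKM. CDH1 lay between 11.9 and 13.6 FPKM. Of the intestinal markers, CDX2 lay between 2.73 and 3.73 FPKM, whereas CDH17, VIL1 and CDX1 lay at or below 0.0182 FPKM. Of 10 markers of other cell types, 8 stayed below 0.2 FPKM and only CD68 and COL1A1 exceeded 1 FPKM, where FPKM are fragment counts corrected for transcript length and library total.

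N6-methyladenosine (m6A) is a methyl mark on adenosines of mRNA that is written by a nuclear methyltransferase complex around METTL3 and METTL14, removed by demethylases, and read by YTH domain proteins that affect splicing, translation and decay. The complex prefers a short consensus named DRACH, in which A, G or T is followed by A or G, then AC, then A, C or T, and GGAC is its most common core. The mark is typically concentrated in long internal exons and around stop codons.

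The sequences below show what the regions of the 3 genes with the most regions had in common and where they differed. Each is 24 nt around the GGAC nearest to the midpoint of a region, read from GRCh37 (hg19) on the strand of the gene, 5′ to 3′, with GGAC in capitals. Windows come from the first 8 regions of each gene, in transcript order. KMT2D encodes a histone H3 lysine 4 methyltransferase, and its windows lay in the coding sequence, in exons 11, 12, 35 and 40 of 55. Region 3 of KMT2D held no GGAC.
KMT2D region 1, chr12:49445560-49445583 (- strand): caccacctgaGGACtcgcctatgt
KMT2D region 2, chr12:49443946-49443969 (- strand): gccagagcctGGACagacccctgg
KMT2D region 4, chr12:49432393-49432416 (- strand): ctgtaagtgaGGACccccaccgac
KMT2D region 5, chr12:49431558-49431581 (- strand): ggccacgggaGGACcaccagctca
KMT2D region 6, chr12:49427230-49427253 (- strand): gcaccttctaGGACaggtggcaat
KMT2D region 7, chr12:49426262-49426285 (- strand): cactctctggGGACtcacaactcc
KMT2D region 8, chr12:49425450-49425473 (- strand): acccatccagGGACccccaaacct
AHNAK encodes a very large scaffold protein built of repeats. All 8 of its windows lay in the coding sequence of exon 5 of 5, an exon of 18173 nt.
AHNAK region 1, chr11:62301042-62301065 (- strand): ttccagcagtGGACatttcatctt
AHNAK region 2, chr11:62299158-62299181 (- strand): aggctgatgtGGACatctcaggac
AHNAK region 3, chr11:62297892-62297915 (- strand): tgcctgatgtGGACctgaatctta
AHNAK region 4, chr11:62296296-62296319 (- strand): tgcctgatgtGGACttacacctga
AHNAK region 5, chr11:62293724-62293747 (- strand): aaacctgaaaGGACccaaagtgaa
AHNAK region 6, chr11:62291124-62291147 (- strand): gccctaaagtGGACatcaatgccc
AHNAK region 7, chr11:62288598-62288621 (- strand): gccccagtttGGACattgacacac
AHNAK region 8, chr11:62285520-62285543 (- strand): caccgaatgtGGACtttaacttgg
CFLAR encodes cFLIP, an inhibitor of caspase-8 and of death receptor signalling. Regions 1, 2, 4 and 5 lay in exons of other annotated transcripts of the gene, region 3 in the coding sequence of its canonical transcript, and region 8 in the 3′UTR. Region 6 of CFLAR held no GGAC.
CFLAR region 1, chr2:201981024-201981047 (+ strand): gagacaacaaGGACcacgggagga
CFLAR region 2, chr2:201983760-201983783 (+ strand): agcctccagaGGACtcacaacact
CFLAR region 3, chr2:201994692-201994715 (+ strand): ctaatgtcagGGACcttctggata
CFLAR region 4, chr2:202001292-202001315 (+ strand): ttgataaaagGGACcagattcaca
CFLAR region 5, chr2:202002181-202002204 (+ strand): gcctgaaggtGGACactggggtgc
CFLAR region 8, chr2:202032294-202032317 (+ strand): tttgagcacaGGACtcctgagggt
The AHNAK windows resembled each other, since GGAC often followed the letters GT. The pattern GTGGAC was chosen after these windows were seen, and it was not counted outside the regions. In the 9 AHNAK regions, 51 of 116 GGACs (44%) were part of GTGGAC, against 184 of 2182 (8.43%) in the other 629 regions described here and 3037 of 38815 (7.82%) in the 10703 remaining regions with a peak in all 4 lists. Repeats can also limit where reads are placed. In 8 regions more than 10% of the 50-nt stretches occurred more than once in the same transcript, and these were 4 regions of AHNAK (up to 20.5%), 2 of AHNAK2 (up to 25.1%) and 2 of EPPK1 (up to 20.5%). Peaks there should be read with care, since a read from one repeat could be placed in another. How the reads were placed was not tested.

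GGAC was common in the regions but was not a feature that set them apart. It occurred in 559 of 638 regions (87.6%), against 90.1% of the other regions in all 4 lists. GGACT, a longer form of the core, occurred in 50.8% of the regions and in 58.9% of the others, and a DRACH match in 99.7% of both. The median density was 4.17 GGAC per kb, against 4.75 in the others, and the median GC content was 48.4%, against 50.4%. Within the same transcripts, GGAC was denser inside the regions than outside them, with a median of 4.41 per kb inside and 2.94 outside, and the inside value was higher in 102 of 138 genes (73.9%). In genes with 1 to 3 regions the medians were 4.77 and 3.20, and the inside value was higher in 67.7% of 6699 genes. The motif was found outside the regions too. Of 640 windows of 600 nt on these transcripts that held no part of any union region, 502 (78.4%) had at least 1 GGAC. AHNAK had 7.17 GGAC per kb inside and 6.19 outside, whereas ADNP, a chromatin-associated homeobox protein, had 1.79 inside and 3.86 outside.

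The 20 genes with the most regions had varied roles. Among chromatin and transcription factors were KMT2D with 11 regions, the corepressor SPEN with 8, KMT2A, NSD2 and JMJD1C with 6 each, and ING5 with 5. KMT2A and NSD2 are histone methyltransferases, JMJD1C belongs to a family of histone demethylases and ING5 is a subunit of histone acetyltransferase complexes. RNA processing was represented by SRRM2 (6 regions), SON and PCF11 (5 each), of which SRRM2 and SON form nuclear speckles and PCF11 acts in 3′ end cleavage of transcripts. AHNAK (9), AHNAK2 (6) and DST (6) encode scaffold or cytoskeletal linker proteins, and FAT1 (7) is a giant cadherin. GOLGB1, a Golgi tether, the helicase-like ZNFX1, BOD1L1, which protects replication forks, ZNF638 and KIAA2026 had 5 regions each.

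**Figure D1:**
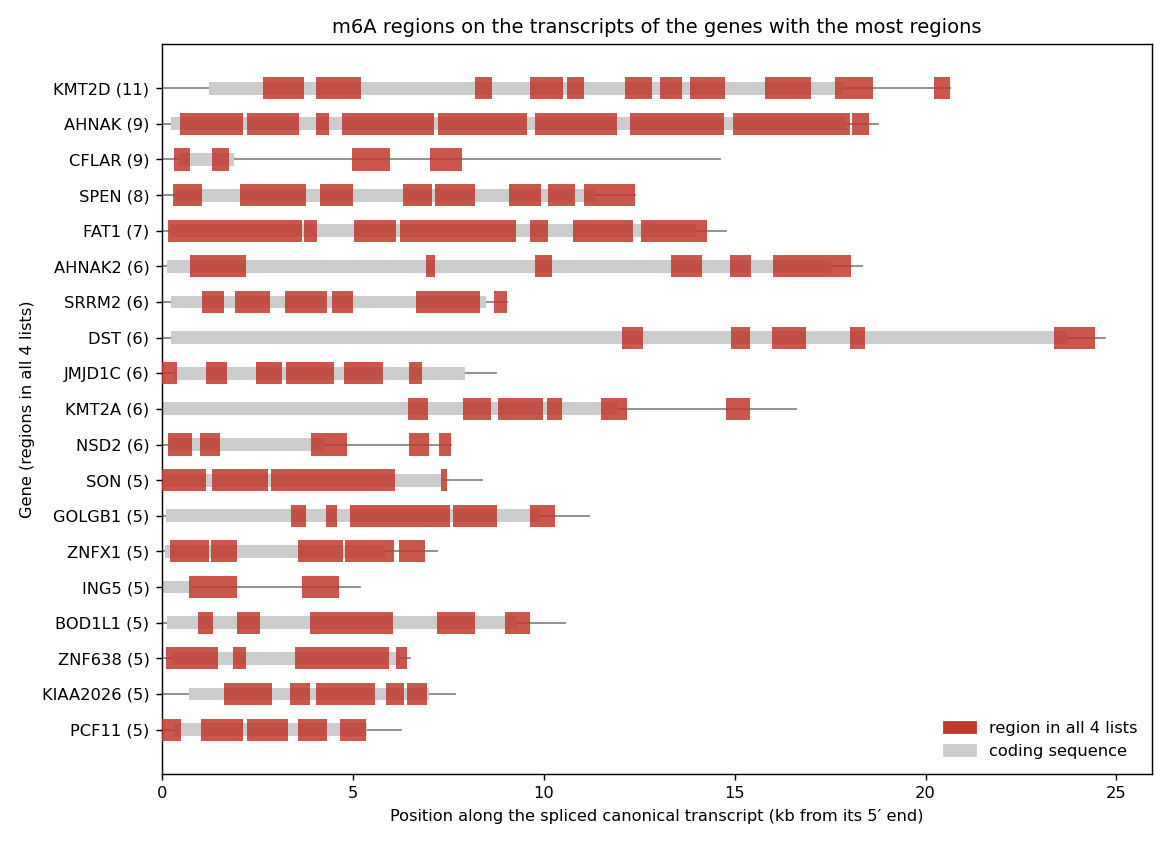
Spliced canonical transcripts of 19 of the 20 genes with the most regions, drawn from the 5′ end in kb, with the coding sequence as a grey bar and each region in all 4 lists in red. The number of regions is in brackets, and regions that lay off the canonical transcript are not drawn, among them 5 of 9 for CFLAR and 3 of 5 for ING5. The midpoints of all 9 AHNAK regions lay in 1 exon, whereas those of KMT2D were spread from exon 11 to exon 55.

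KMT2D, the gene with the most regions, had 9 regions in the coding sequence and 2 in the 3′UTR of a transcript of 20635 nt. Its gene lies on the minus strand of chromosome 12, and the regions spanned chr12:49412758-49446027. The regions summed to 8822 nt. In the Control 1, Control 2, FUSO 1 and FUSO 2 lists they were covered by 11, 12, 11 and 12 peaks. The strength of the peaks varied widely within the gene. Region 10, across the end of the coding sequence, was listed with p-values 3.2e-53 and 1.6e-41 for Control, 2.5e-48 and 7.9e-33 for FUSO. Region 3 in exon 32 was weakest in Control, at 0.00018 and 0.0017, and had 9.8e-07 and 1.7e-05 in FUSO. At region 3 both FUSO values were smaller than both Control values, whereas at region 10 the groups overlapped. Region 6 went the other way from region 3, with 4e-12 and 3.2e-11 in Control and larger values of 2.6e-08 and 0.00095 in FUSO, which lay far apart themselves.

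AHNAK had the most complete coverage, with regions on 16178 of 18761 nt, or 86.2% of its transcript. They spanned chr11:62283614-62302601 on the minus strand. Region 8, the longest of the 9 at 3061 nt, had listed p-values of 1e-287, 0, 1e-285 and 1e-250, and the short region 3 of 331 nt had 7.8e-06, 0.00031, 1.6e-05 and 0.00045. At region 8 both FUSO values were larger than both Control values, and at region 3 the groups overlapped. SPEN, on the plus strand of chromosome 1, had 7 regions in the coding sequence and 1 over the end of it. The last, of 1319 nt, had the smallest values of the gene in all 4 lists, 1e-157, 1e-128, 1e-155 and 1e-132. FAT1 had all of its 7 regions in the coding sequence, summing to 11836 nt.

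In CFLAR, 5 of 9 regions lay off the canonical transcript, in exons of other annotated transcripts. Its regions spanned chr2:201980857-202034655 on the plus strand. Region 3 had the smallest p-values of the gene in all 4 lists, at 7.9e-26, 1e-17, 4e-35 and 7.9e-26. Region 4 reached 0.00066 and 1.5e-07 in Control and 1.2e-08 and 0.0012 in FUSO, so the replicates of each treatment lay far apart and the groups overlapped. For the whole set, 58 regions in 33 genes lay off the canonical transcript in full or in part. ING5 had 3 of its 5 regions there, ZNF451 3 of 5, and COA1 and the non-coding LINC00674 all 4. For such genes the count of regions joins several transcript forms and is not a count on 1 mRNA molecule.

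**Figure D2:**
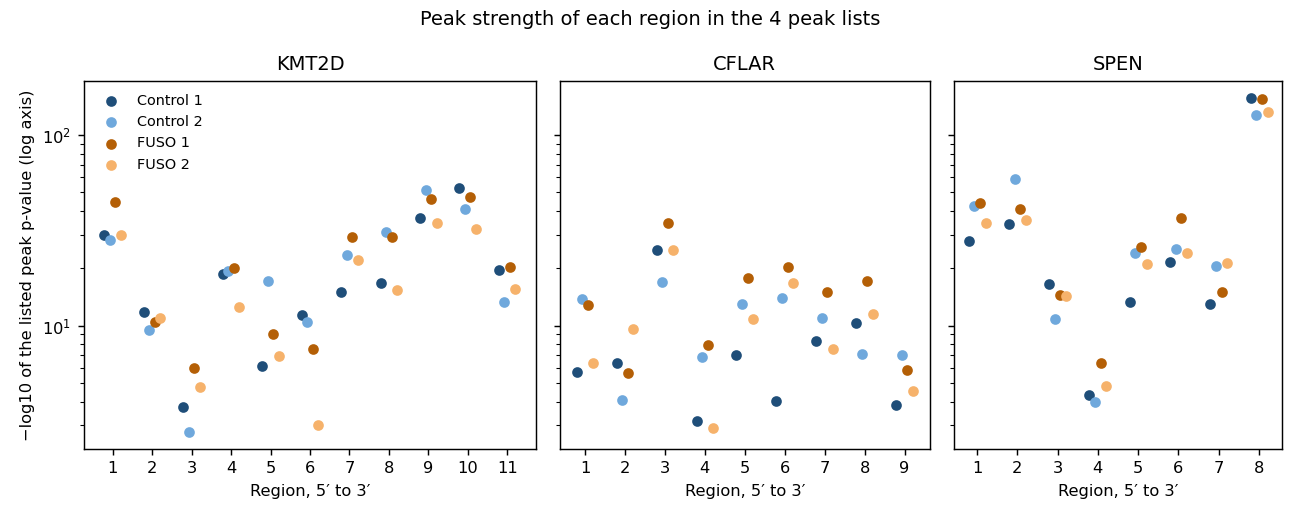
Listed peak p-values of the regions of KMT2D, CFLAR and SPEN as −log10 on a log axis, 1 point per peak list, regions in transcript order. KMT2D region 3 had the weakest Control values of its gene and SPEN region 8 the strongest values of its gene in all 4 lists, and the Control and FUSO points were mixed in most regions.

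Most of the regions lay in coding sequence. Of the 638, 572 could be placed on a protein-coding canonical transcript, and the midpoint fell in the coding sequence for 376 (65.7%), within 100 nt of the stop codon for 33 (5.77%), in the 3′UTR for 155 (27.1%) and in the 5′UTR for 8 (1.40%). For the other 9119 placed regions the shares were 42.7%, 20.3%, 34.8% and 2.22%. Placed by their start instead of the midpoint, 70.5% of the regions fell in coding sequence against 62.3% of the others, and the order for the 3′UTR turned, with 21.7% against 15.8%. All regions of 31 genes lay in coding sequence, among them FAT1 and AHNAK2, and all regions of 3 genes in the 3′UTR. The latter were ECE1, which processes endothelin, ICMT, which methylates prenylated proteins, and ZDHHC3, a palmitoyltransferase.

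The small share at stop codons did not mean that these genes lacked a region there. A transcript has 1 stop codon, so a gene with more regions can hold a smaller share of them at it. Counted by gene, 33 of 137 genes (24.1%) had a midpoint within 100 nt of the stop codon, against 26.1% of genes with 1 region, 27.0% with 2 and 29.9% with 3. A region that ran over the end of the coding sequence, wherever its midpoint, was present in 100 of 137 genes (73.0%), against 67.5%, 72.5% and 74.6%. The genes had a region at the end of the coding sequence about as often as genes with fewer regions, and their further regions lay elsewhere. The strongest region of a gene, by the mean −log10 p over the lists, had its midpoint in the coding sequence in 70 of 141 genes (49.6%), in the 3′UTR in 49 (34.8%) and near the stop codon in 10 (7.09%).

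Long exons held many of the regions. An internal exon of at least 400 nt held the midpoint of 240 of 572 regions (42.0%), against 14.8% of the others, and the last exon held 264 (46.2%), against 72.4%. The median length of the exon at the midpoint was 3013 nt, against 1581 nt. Along the coding sequence the regions were spread more evenly. In 5 equal parts from start to stop, 17.8%, 17.3%, 20.6%, 18.8% and 25.4% of 393 midpoints were found, and for the other regions 11.7%, 12.9%, 15.2%, 20.4% and 39.7% of 4761. Regions of 1 gene share their transcript and are not independent, so no test was made. These genes had longer coding sequences than the others, and what part that had in the placement was not tested.

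The regions were about as long as those of other genes, with somewhat smaller gaps between neighbours. Their median exonic length was 598 nt (quartiles 391 and 900), against 595 nt for the others. Along a transcript, the midpoints of 441 pairs of neighbouring regions were a median of 1392 nt apart (quartiles 973 and 2081), and in genes with 2 or 3 regions 1431 nt (2148 pairs). The smallest distance was 419 nt and the largest 7630 nt, in ACACA, which encodes acetyl-CoA carboxylase. The median gap between the end of one region and the start of the next was 539 nt, against 629 nt. Of the gaps, 42 (9.52%) were under 100 nt, against 8.15%, and 129 (29.3%) were over 1000 nt, against 34.8%. Both regions of a pair lay in the same exon for 53.1% of the pairs, against 45.7%. In 189 of the 638 regions (29.6%) at least 1 list had 2 or more peaks, which a wider peak of another list joined here. Among neighbours in AHNAK the gaps were 59 to 449 nt, in AHNAK2 569 to 4706 nt.

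Transcript length differed strongly with the number of regions. The canonical transcripts of the tested genes had a median of 8234 nt and a coding sequence of 5442 nt, against 3530 nt and 1467 nt for genes with 1 to 3 regions. Genes with exactly 4 regions had a median of 7650 nt and those with exactly 3 of 5661 nt. Of genes with a transcript under 4000 nt, 8 of 6861 (0.117%) had 4 or more regions, compared with 82 of 3747 (2.19%) from 4000 to under 10000 nt and 46 of 386 (11.9%) from 10000 nt. Among the 386 longest transcripts, 74 (19.2%) had no region in all 4 lists. The median number of regions per kb was 0.557 in the genes described here and 0.372 in genes with 1 to 3 regions. At the threshold it did not differ much, with 0.523 in genes with exactly 4 regions and 0.53 in those with exactly 3. The regions covered a median of 33.3% of the transcript, against 21.5% in genes with 1 to 3 regions. These comparisons were set in part by the rule, which used the number of regions.

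The mRNAs were expressed at moderate levels. Of the 141 genes, 138 were in the expression table and 137 had a mean of at least 1 FPKM, the limit for testing. Their median was 7.03 FPKM in Control 1, 7.16 in Control 2, 7.02 in FUSO 1 and 7.15 in FUSO 2, and the values of the 4 libraries differed by less than 0.2 FPKM. Over the 4 libraries, genes with 1 to 3 regions had a median of 10.1 FPKM and genes with none 7.60. Genes with exactly 3 regions had 7.70, and those with 2 and 1 had 10.4 and 10.2. The median of the genes described here was 7.09 FPKM, and that of those with exactly 4 regions 7.33. The highest were SRRM2 at 92.7, 93.8, 93.4 and 92.1 FPKM in Control 1, Control 2, FUSO 1 and FUSO 2, the cytoskeletal linker PLEC at 97.7, 88.8, 84.7 and 90.9, and AHNAK at 63.0, 59.1, 64.0 and 61.8. The lowest were ERCC6, a repair factor, between 1.21 and 1.37 FPKM, ZFHX4 between 1.01 and 1.25, and MAML3, a Notch coactivator, between 0.653 and 1.12. The Control and FUSO values overlapped in SRRM2, PLEC, AHNAK and ERCC6, both ZFHX4 values were lower in FUSO and both MAML3 values higher.

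**Figure D3:**
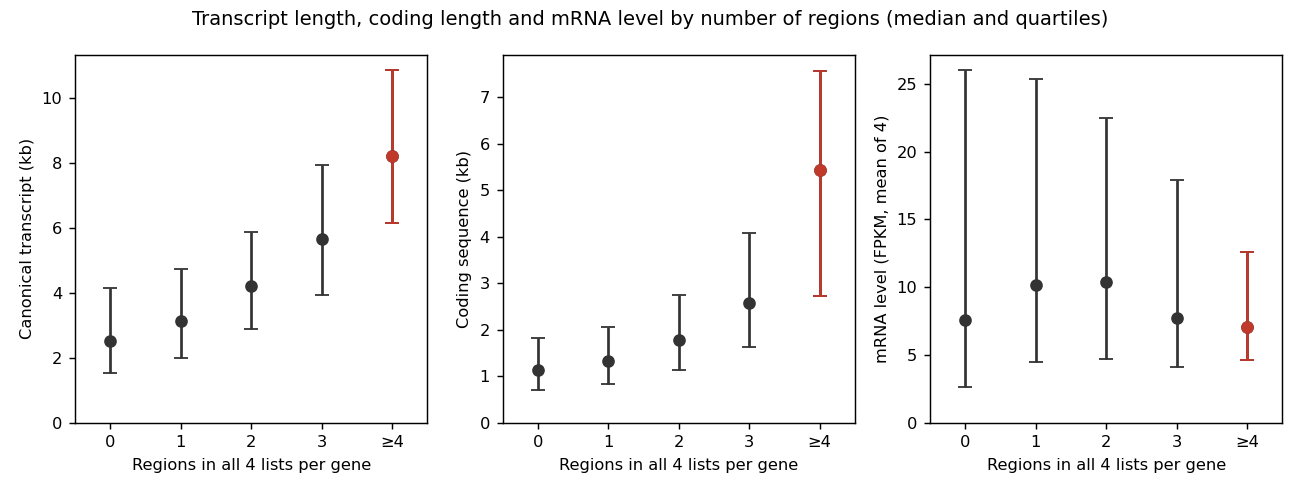
Length of the canonical transcript (kb), length of the coding sequence (kb) and mean FPKM of tested genes with 0, 1, 2, 3 and 4 or more regions in all 4 lists. Points are medians and bars run from the first to the third quartile, and the median transcript of the last group (red) was 8234 nt with 7.09 FPKM.

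The lists of genes by function showed where these mRNAs fell. Of the 141 genes, 46 were in one of the lists or had a symbol starting with ZNF. Over all tested genes with a canonical transcript, 136 of 10994 (1.24%) had 4 or more regions, and this share rose with transcript length as given above. The part of transcript length in the shares of the lists was not tested. Chromatin regulators and coactivators held the most, 15 of 63 listed genes (23.8%), with KMT2D, KMT2A, ASH1L and SETD1B, all histone methyltransferases, at the top. RNA processing, decay and translation held 7 of 40 (17.5%), including SRRM2, SON and VIRMA, which is itself a subunit of the m6A writer complex. VIRMA had 4 regions and 13.9, 13.6, 13.8 and 12.6 FPKM in Control 1, Control 2, FUSO 1 and FUSO 2. Large cytoskeletal and junctional proteins held 7 of 41 (17.1%), including AHNAK, DST and the tight junction protein TJP1. Mitosis and centrosome genes held 5 of 40 (12.5%), including PCNT, a scaffold of the centrosome, and the proliferation marker MKI67. Growth factor, Wnt, Notch and adhesion signalling held 3 of 45 (6.67%), namely FAT1, the mTOR inhibitor TSC1 and the Wnt inhibitor APC. DNA damage response and replication held 1 of 30, RAD50, and large ubiquitin ligases and deubiquitinases none of 26. Symbols starting with ZNF held 8 of 525 (1.52%). The shares of the lists are over listed genes, whereas the 1.24% is over tested genes. Only 281 of the 525 ZNF symbols were tested, all 8 among them, so the 1.52% cannot be set directly against the 1.24%.

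The comparison of Control with FUSO mRNA asked whether the treatment changed the level of mRNAs with many m6A regions. It was made with limma on log2(FPKM + 1) over 11088 genes, so that fold changes of low genes are understated. Of the 137 genes, 1 passed a Benjamini-Hochberg adjusted p of 0.05 and was higher in FUSO, against 0.667% of all genes tested, and 0 were lower, against 0.135%. At an unadjusted p under 0.05 there were 16 (11.7%), against 13.5% of all genes, with 8 higher (5.84%, against 7.04%) and 8 lower (5.84%, against 6.45%). Both FUSO values lay above both Control values in 26 genes (19%), against 26.1%, and below them in 38 (27.7%), against 21.1%. The median log2 fold change was -0.01, against 0.01 over all genes. By the limma test the share of changed genes was near the background. By the order of the libraries, a smaller share was higher in FUSO and a larger share lower than over all genes. That difference in shares was not tested.

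ZBTB7A, a transcription repressor with a zinc finger domain, was the 1 gene called. It had 2.77 and 3.98 FPKM in Control and 8.23 and 8.73 in FUSO, and the groups did not overlap. The fold change on the log2 scale was 1.13 with an SE of 0.144 and a limma adjusted p of 0.0431. The adjusted p ranged from 0.00433 to 0.299 over 12 alternative settings, and the call was lost in 8 of them, among them leaving out either FUSO library. The direction was the same in all 12. The gene had 5 regions, 2 in the coding sequence and 3 in the 3′UTR, on chromosome 19. In region 1 the listed p-values of Control were 1.2e-09 and 4e-19, and those of FUSO were 6.5e-06 and 6.2e-07, larger in both lists. Region 3 had 3.1e-10 and 6.5e-10 in Control and 1e-16 and 4e-15 in FUSO, smaller in both. Region 4 was smaller in both as well, at 6.3e-15 and 7.9e-22 against 5e-12 and 5e-14, and regions 2 and 5 overlapped. The listed p-values of this mRNA did not move in 1 direction. Over all regions in all 4 lists, both FUSO p-values were smaller in 15.7% and larger in 18.9%. The part of the higher mRNA level in these p-values was not tested.

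The next largest changes did not pass the test. TJP1 had 12.5 and 17.1 FPKM in Control and 26.8 and 24.5 in FUSO, or 0.77 on the log2 scale (SE 0.146, adjusted p = 0.143 with limma). It passed only when Control 1 or Control 2 was left out, with log2 fold changes of 0.56 and 0.98. ZDHHC3 had 3.26 and 3.33 FPKM in Control and 5.04 and 5.32 in FUSO, and the log2 fold change was 0.52 (limma adjusted p = 0.0932). For TSC1 the value of 0.39 rested on 1 library, since Control 1 had 1.80 FPKM and the other libraries 4.31, 4.16 and 3.95. It was -0.07 without Control 1, and 0.85 and past the threshold without Control 2. Both FUSO values were above both Control values for TJP1 and ZDHHC3, and the groups overlapped for TSC1.

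MED13L, a subunit of the Mediator kinase module, had the lowest value. It had 19.5 and 19.7 FPKM in Control and 15.6 and 13.7 in FUSO, or -0.40 on the log2 scale (SE 0.0821, adjusted p = 0.169 with limma). TSC22D1 had 28.5 and 34.1 FPKM in Control and 27.8 and 21.8 in FUSO (log2 fold change -0.33). TBC1D16, a GTPase activator, had 3.07 and 3.20 in Control and 1.43 and 3.68 in FUSO (log2 fold change -0.30), with the FUSO libraries on either side of Control. CCDC57 (-0.27) and ZNF451 (-0.23) were lower in both FUSO libraries. The groups did not overlap for MED13L, TSC22D1, CCDC57 and ZNF451, but no adjusted p was under 0.05.

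The 20 genes with the most regions moved little. Their log2 fold changes ran from -0.23 for DST to 0.26 for PCF11, and none passed the test. KMT2D had 8.0 and 8.42 FPKM in Control and 7.88 and 7.67 in FUSO, with a log2 fold change of -0.07 (95% confidence interval -0.26 to 0.12). AHNAK had a log2 fold change of 0.04 (-0.11 to 0.20), with overlapping values. PCF11 had 8.57 and 7.83 FPKM in Control and 10.3 and 9.72 in FUSO, and DST 10.5 and 11.4 in Control and 9.69 and 8.75 in FUSO. Their unadjusted p-values from limma were 0.0207 and 0.0400, with adjusted p = 0.291 and 0.353.

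In the function lists, no member gene passed the test. The chromatin list had 62 genes tested, 0 higher and 0 lower, with a median log2 fold change of -0.01 over the list and -0.05 over its 15 genes with 4 or more regions. The cytoskeletal list had 0 of 36 called, and the mitosis list 0 of 40. RNA processing had 1 of 40 higher and signalling 1 of 44, in neither case a gene with 4 or more regions. The NF-kB and immediate early list, which changed most, had 22 of 33 tested genes higher and 0 lower. Of its 36 genes, 25 had at least 1 region in all 4 lists, and none had 4 or more.

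The replicates differed in an orderly way in ADNP and COA1, which were picked out after their values were seen. ADNP had 2.46 and 2.68 FPKM in Control 1 and FUSO 1 but 19.7 and 21.0 in Control 2 and FUSO 2. COA1, a mitochondrial assembly factor, had 11.1 and 12.3 in the libraries of replicate 1 and 23.5 and 21.4 in those of replicate 2. In both genes each library of replicate 2 exceeded each of replicate 1 by over 1.5 times. COA1 had all 4 of its regions off the canonical transcript, and what part the assignment of fragments to transcripts had in these FPKM was not tested.

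Peak width and strength were compared between treatments over the 638 regions. The rule used the presence of a peak in every list, and listed peaks had p-values of at most 0.012. Regions without a listed peak in either treatment were thus left out, and the comparison covers only regions kept in both. The median summed peak length per region was 420 nt in Control 1, 482 nt in Control 2, 481 nt in FUSO 1 and 449 nt in FUSO 2. The difference of FUSO minus Control was 14 nt (exact two-sided permutation test, p = 1). The median −log10 p was 10.4 and 14.65 in Control and 13.65 and 10.89 in FUSO, a difference of -0.256 (exact permutation p = 1). With 2 lists against 2 the smallest p the test can give is 0.333, so it could not pass 0.05. Control 2 and FUSO 1 had the stronger values, Control 1 and FUSO 2 the weaker ones, and the groups overlapped. In the other regions Control 2 and FUSO 1 also had the stronger values, with medians of 15.89 and 18.4 in Control and 18.7 and 15.0 in FUSO. The depth of the IP libraries is unknown, so the part of depth in these values was not tested.

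By region, both FUSO p-values were smaller than both Control p-values in 81 of 638 (12.7%), against 15.7% of all regions in all 4 lists, and larger in 107 (16.8%), against 18.9%. The order of the regions by strength was similar in all lists. Spearman's rank correlation of −log10 p between pairs of lists was 0.848 to 0.907 over the 638 regions, and 0.9 to 0.935 over the others, across regions that share transcripts and lengths.

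These genes also had regions with a peak in only some of the lists. The 141 genes had 925 union regions, of which 638 (69.0%) were in all 4 lists, against 51.5% of all union regions, a share the rule raised. Of the rest, 159 were in 1 list, 65 in 2 and 63 in 3. Among regions not in all 4 lists, 14 of 287 had a peak in both Control and neither FUSO list, against 581 of 10660 over all genes. The reverse held for 13 of 287, against 524 of 10660. As shares of union regions, the former were 1.51%, against 2.64%, and the latter 1.41%, against 2.38%. The rule lowered these shares in the genes described here, since it raised the number of regions in all 4 lists. In the former, the smallest p-values were those of a 5′UTR region of SRRM2 (chr16:2802630-2806536, 4e-17 and 5.6e-06), a coding region of PLEC (5e-13 and 1.9e-06) and one of CCDC57 (3.6e-07 and 5e-12). In the latter, KMT2A had 2 such regions in its coding sequence, with p-values between 0.00012 and 0.003. STC2, a secreted glycoprotein, and MAML3 also had 2 each. The mRNA of STC2 and MAML3 was higher in both FUSO libraries and that of CCDC57 lower. For SRRM2, PLEC and KMT2A the mRNA values of the groups overlapped. These regions were named for their values, and the difference between treatments was not tested for a single region. The part of mRNA level in these peaks was not tested either.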

How the data were processed

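m6A and mRNA were measured in HCT116 cells with 2 Control and 2 FUSO replicates, grouped by the sample labels. Per the submitters' processing notes and the study's methods, the authors trimmed adapters (Trim Galore 0.3.3 in the notes, cutadapt in the methods) and aligned reads to hg19 with HISAT2 2.1.0. The deposited peak lists held 17039 to 18365 peaks each, called per replicate, IP against input. Their score, between 0 and 0.012, was read as a p-value of the authors before correction, and it fell with peak length (Spearman correlation -0.84 to -0.846). The methods name MACS2, whereas the layout with exon blocks is that of exomePeak, and which program was used was not settled. The deposited FPKM were made by the authors with StringTie from the input libraries. No counts were given, so absolute depth was unknown, and no count model could be used. Relative input depth, estimated from the most frequent ratio of genes at or below 0.05 FPKM (shared by 6 to 12 of 261 to 329 genes per pair), was 1.12, 1.24 and 0.916 for Control 2, FUSO 1 and FUSO 2 with Control 1 set to 1.

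Peaks were merged by at least 1 bp of exon blocks on the same strand, and genes were taken from the name given with each peak. Regions were placed on GENCODE release 44 canonical transcripts of GRCh37 when it held at least 90% of their bases. Coordinates are 1-based. The mRNA test was limma 3.58.1, run under R 4.3.3 (eBayes with trend, two-sided), on log2(FPKM + 1) of the 11088 genes averaging 1 FPKM or more, with Benjamini-Hochberg adjustment over all of them. Scripts ran in Python 3.11.15 and were tested on simulated data. Named genes were the 20 with the most regions, those called, the 5 highest and 5 lowest fold changes, the 3 highest and 3 lowest FPKM, and examples from the function lists. ACACA, ADNP, CDV3, COA1, ECE1, ICMT, LINC00674, STC2 and VIRMA fell outside this rule and were named after their values were seen. Some genes and 1 sequence are not reported here. The members, lists and tests were chosen with earlier results of these data known. Alternatives changed the overlap, p-value limit, regions per gene, pseudocount, filter, normalization, variance model, GC and length correction, and left out each library.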

Additional observations from a re-analysis of the deposited data

How the results depend on the processing

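The number of regions and genes depended on the settings. It was 369 regions in 83 genes when peaks had to overlap by 50% of both, 193 in 42 with p-values of at most 1e-05, 1970 in 585 with 3 or more regions per gene and 270 in 49 with 5 or more. Leaving out each list in turn gave 822 to 898 regions in 181 to 196 genes. Of the 83 and 42 genes, 76 and 42 were among the 141. Genes called higher in FUSO fell from 1 to 0 with a pseudocount of 0.1, no filter, quantile normalization, no variance trend, or a correction for GC content or transcript length, and were 2 (ZBTB7A and CDV3) with 3 or more regions per gene. Leaving out each input library gave 0 to 3, where a lone library was assumed to vary like the others. No gene was called lower in any of these. The median log2 fold change was -0.045 with quantile normalization. The median FPKM was 7.05 to 7.19 without each library. Placed by the region start, 70.5%, 2.45% and 21.7% of regions lay in coding sequence, at the stop codon and in the 3′UTR. With p-values of at most 1e-05, coding sequence held 71.0% and the 3′UTR 22.2%, GGAC was in 91.2%, and midpoints were 1641 nt apart. DRACH in place of GGAC gave 99.7%, and gaps in place of midpoints 539 nt. The width difference was -17 to 45 nt and the −log10 p difference -2.38 to 1.87 without each list. Across all genes tested, replicate numbers did not pair the libraries (correlation of replicate deviations 0.0243). Single genes such as ADNP and COA1 did differ by replicate number, as given above. With the replicate block the same 1 gene was called, among 90 over all genes against 89. Without FUSO 1 or FUSO 2 these were 24 and 16, and without Control 1 or Control 2 172 and 284. The median fold change, near 0, and the width and −log10 p differences changed sign in some of these settings, as did uncalled genes such as TSC1 (-0.07 without Control 1) and AHNAK2. ZBTB7A and the other genes with changes of over 0.5 kept their direction in all settings run. The causes of the changes were not tested. No read counts were given, so depth limits could not be set.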
